A study of Mus musculus with 12 samples.

Results

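Ly6C+ monocytes of the mouse fetal liver labelled KO were compared with Ly6C+ fetal liver monocytes labelled Mixed across all genes of one RNA-seq count table. The 2 groups hold 6 of the 12 libraries, 3 each, and were chosen by their labels alone. The KO libraries carry the genotype label KO and come from E13.5 fetal liver. The Mixed libraries carry the genotype label WT and come from E15.5 fetal liver. The 3 WT fetal liver libraries served as a reference, and their labels give E13.5 for WT 1 and E15.5 for WT 2 and WT 3. The 3 remaining libraries are WT Ly6C+ monocytes of bone marrow. The labels state neither the deleted allele nor what was mixed in the Mixed cells, and the series title names cMaf and Zeb2. Each library was made from sorted cells with a low-input kit that copies polyadenylated RNA and does not mark strand. Genotype, embryonic day and the Mixed cells therefore change together between KO and Mixed and cannot be told apart from these 6 libraries alone. Genes that differed between KO and Mixed but not between KO and WT were examined separately, because they may go with embryonic day or with the Mixed cells.

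Monocytes of the fetal liver arise from blood progenitors that settle in the liver before birth, and they enter many organs to become resident macrophages. Zeb2 is a zinc finger repressor of the ZEB family that acts in several myeloid lineages, and cMaf, encoded by Maf, is a leucine zipper factor of macrophages. Zeb2 and its relative Zeb1 bind the same short DNA boxes, and Id2 blocks E proteins, which bind overlapping boxes. Ly6C marks the classical monocyte, and dendritic cells, neutrophils and monocytes share progenitors in which these factors are at work. Between the embryonic days compared here the liver is the main site of blood formation, and its parenchyma grows quickly.

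Library totals lay between 20154462 and 24473471 counts for KO, between 20332206 and 21542255 for Mixed and between 17384911 and 21703987 for WT. The sorted marker Ly6c2 measured 1530.7 ± 155.8 CPM (counts per 1000000 counts of the library; SD, n = 3) in KO, 698.9 ± 4.5 in Mixed and 525.6 ± 31.1 in WT, so every library held the marker used for the sort. Ly6c2 has near-identical copies in the Ly6 cluster, and its reads can be split among them. Summed over 8 monocyte markers, KO held 7329 to 8286 CPM, Mixed 14070 to 14151 and WT 10522 to 11998. Lyz2 makes up most of this sum, and the markers moved both ways. Ly6c2, Itgam (1.34-fold) and Fcgr1 (1.24-fold) were higher in KO than in Mixed, and Lyz2, F13a1, Csf1r, Ccr2 and Cd14 lower. Summed over 5 markers of conventional dendritic cells, KO, Mixed and WT held 121.2 to 135.0, 10.02 to 12.03 and 10.57 to 11.84 CPM. Over 7 neutrophil markers, which also moved both ways, the ranges were 7713 to 9779, 8028 to 8306 and 9039 to 11205 CPM. The 3 tested B cell markers summed to at most 0.6404 CPM in any fetal liver library, and none of the 3 T or NK cell markers passed the filter. KO 3 and WT 3 stood apart in the hepatoblast markers Alb and Afp, with sums of 61.66 and 49.05 CPM against 3.464 to 18.76 in the other fetal liver libraries. KO 1 and WT 3 held the most Ltf, a neutrophil granule transcript, at 454 and 586.6 CPM. KO 3 also stood apart in sex-linked genes: the Y-linked Eif2s3y was at 56.6, 49.8 and 0 CPM in KO, 36.9, 37.1 and 35.5 in Mixed and 21.1, 19.97 and 45.4 in WT, while Xist, which silences an X chromosome in female cells, was at 26.8, 30.4 and 86 CPM in KO, 54.1, 45.9 and 56.1 in Mixed and 89.2, 94.7 and 24.9 in WT. The other 8 fetal liver libraries held both. Nothing in the labels ties the libraries to separate embryos or litters, so the p-values measure the spread between these libraries, which may be technical. In sorted bulk cells, fewer cells of a type and less RNA per cell cannot be told apart.

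Zeb2 (chromosome 2, 44983632 to 45117395, mm10) was lower in all KO libraries, at 23.8, 20.1 and 22.5 CPM in KO 1 to 3 against 179, 159 and 164 in Mixed 1 to 3 and 141, 143 and 165 in WT 1 to 3. The KO libraries lie below all others and do not overlap them. The log2 fold change of KO against Mixed was -2.92 (SE 0.0772), a 7.54-fold difference, with an adjusted p of 1.63e-17 by edgeR's quasi-likelihood test with Benjamini-Hochberg adjustment over all genes, which stands behind every adjusted p below. Zeb2 overlaps the antisense gene Zeb2os, and their reads cannot be told apart without strand. Maf measured 12.7, 7.94 and 9.34 CPM in KO and 7.55, 10.6 and 9.38 in Mixed, with a log2 fold change of 0.13 and an adjusted p of 0.635, and its groups overlap. Maf was 13.9, 12.1 and 14.9 CPM in WT.

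Of 14618 genes tested, 5365 (36.7%) differed between KO and Mixed at an adjusted p under 0.05 and are called different below. Of these, 2654 (18.2%) were higher and 2711 (18.5%) lower in KO, and without KO 3 and WT 3 the numbers were 2599 and 2577. At 2-fold or more, 976 (6.68%) were higher and 492 (3.37%) lower. The KO and Mixed libraries did not overlap for 7058 genes (48.3%). Between KO and WT, 5565 genes (38.1%) were called, and between Mixed and WT 1180 (8.07%), 615 (4.21%) higher and 565 (3.87%) lower in Mixed. All KO libraries lay on one side of the other 6 fetal liver libraries for 4989 genes (34.1%). The comparisons share libraries, so their calls are not independent. Against both Mixed and WT, 4017 genes were called in the same direction, and 13 in opposite directions. In the plot of fold change against level, the genes called against Mixed alone lie mostly closer to 0 than the other called genes, and 205 of the 1335 differ by 2-fold or more.

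**Figure D1:**
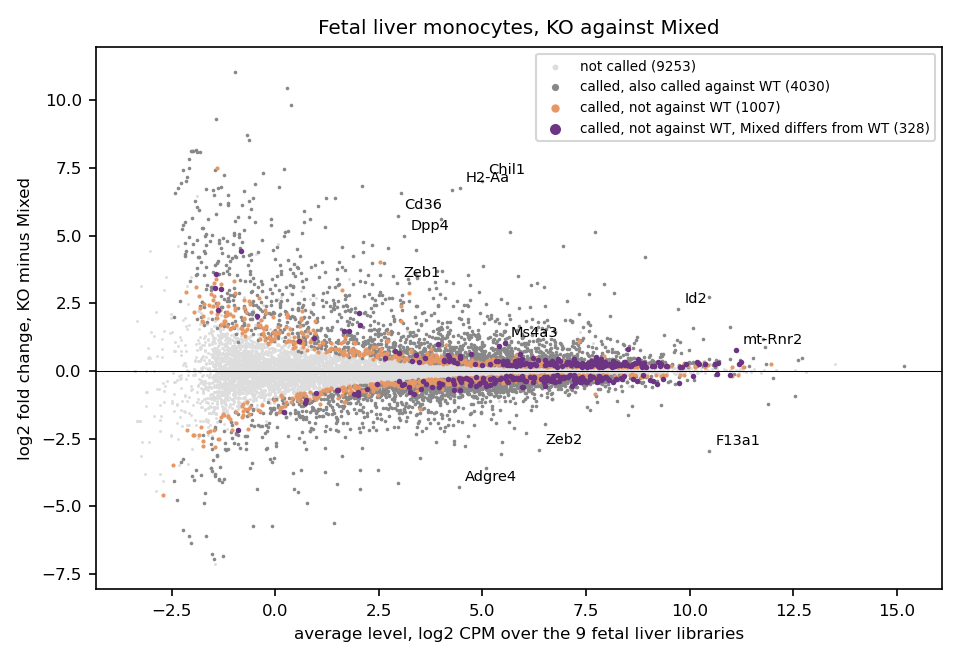
Each point is 1 of 14618 genes, with the average log2 CPM over the 9 fetal liver libraries on the x axis and the log2 fold change of KO against Mixed on the y axis. Grey points mark the 4030 genes also called between KO and WT, orange and purple points the 1335 called against Mixed alone, and purple the 328 of these that also differed between Mixed and WT.

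The genes of MHC class II, which display peptides taken up from outside the cell, were mostly higher in KO. Of the 12 genes listed 10 were called, all higher in KO, and the median log2 fold change of the list was 3.21 against -0.022 over all genes tested. H2-Aa (chromosome 17, 34282744 to 34287823), the alpha chain of the I-A molecule, was at 368, 354 and 355 CPM in KO and 4.16, 2.32 and 3.46 in Mixed, with no overlap. Its fold change was 108, with an adjusted p of 5.37e-13, and WT held 8.26, 7.01 and 11.1 CPM. H2-Ab1 (104-fold) and H2-Eb1 (95.8-fold), the beta chains, and the invariant chain Cd74 (34.6-fold) were higher as well. Ciita, the coactivator without which class II genes are silent, was at 41.7, 37.4 and 40.2 CPM in KO and 0.274, 0.228 and 0.914 in Mixed. The H2-DM chaperone gene H2-DMb1 was 1.82-fold higher, and H2-DMa 1.16-fold. H2-DMb2 had a log2 fold change of 0.21 with an adjusted p of 0.0805 and was not called. H2-Aa, H2-Ab1, H2-Eb1 and Cd74 were also lower in Mixed than in WT, with log2 fold changes of -1.41, -1.45, -1.55 and -0.56 and adjusted p-values of 0.00105, 0.00702, 0.000634 and 0.00411. The list did not move one way between these groups: H2-DMa, H2-DMb1, Ctss and Ifi30 were higher in Mixed than in WT, with log2 fold changes of 0.45, 0.36, 0.20 and 0.23 and adjusted p-values of 0.000195, 0.0104, 0.0191 and 0.0323, and the median over the list was 0.07.

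The upstream sequence of H2-Aa and H2-Eb1 is given because these genes share an upstream CCAAT-type box, the Y box of class II promoters, within the 80 bases before their RefSeq start (GRCm38.p6). The letters GATTGG, or CCAATC on the reverse strand, are in capitals, and the sequences lie at chr17:34287824-34287903 on the minus strand and chr17:34305787-34305866 on the plus strand.
H2-Aa: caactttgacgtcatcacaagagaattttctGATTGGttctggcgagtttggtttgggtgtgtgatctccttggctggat
H2-Eb1: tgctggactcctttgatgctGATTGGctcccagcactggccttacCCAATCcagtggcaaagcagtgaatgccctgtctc
The box lies at bases -49 to -44 of H2-Aa and -60 to -55 of H2-Eb1, which holds a second copy on the other strand. GATTGG occurs on either strand in 16.1% of all 32851 promoter windows of the table, each covering 250 bases before and 50 after a start. A match of these letters is a description of the sequence and not a binding site. Only 9 of the 12 class II genes (75%) have a window, so no share over the list is read.

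MHC class I, which displays peptides made in the cell, was mostly higher in KO as well. Of 16 genes 12 were higher and 1 lower, with a median log2 fold change of 0.53. Tap1 and Tap2, which carry peptides into the endoplasmic reticulum, were 3.6-fold and 3.73-fold higher, with Tap1 at 170.4, 164 and 143 CPM in KO and 43.3, 46 and 43.2 in Mixed. Nlrc5, the class I coactivator, was 5.04-fold higher, and the immunoproteasome subunit Psmb9 2.74-fold. Among the genes of the list called against Mixed but not against WT, the lectin chaperone Canx was higher (log2 fold change 0.25, adjusted p 0.00318), and the third immunoproteasome subunit Psmb10 was lower (-0.25, adjusted p 0.00131). Canx was also lower in Mixed than in WT (-0.25, adjusted p 0.0175).

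All 25 listed genes of the type I interferon response were higher in KO, with a median log2 fold change of 1.53, where 18.2% of all genes were higher. Type I interferon induces these antiviral genes through a receptor on the cell surface and the transcription factors it activates. Ifi205 (chromosome 1, 174011998 to 174031810), of the Ifi200 family of DNA-binding proteins, was at 495, 494 and 393 CPM in KO and 13.4, 11.3 and 14.8 in Mixed, a 35-fold difference with an adjusted p of 2.14e-16. The KO libraries lie above all Mixed and WT libraries, which held 22, 23.3 and 19.3 CPM. Ifi205 has close relatives next to it, and its reads can be split among them. Oasl1 (9.48-fold) and Oas3 (6.24-fold), of the 2'-5' oligoadenylate synthetase family, were higher, as was the antiviral enzyme Rsad2 (7.02-fold). Rsad2 was also lower in Mixed than in WT, with a log2 fold change of -1.27 and an adjusted p of 0.00256. Summed over the list, KO 3 was lower than the other KO libraries, at 2340 CPM against 3054 and 2945, and all 3 lay above the Mixed range of 740.9 to 794.1. No gene of the list was in the group called against Mixed alone.

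Ifi205, Oas3 and Rsad2 carry, upstream of their RefSeq start in GRCm38.p6, the core of the interferon-stimulated response element, written GAAANNGAAA and searched on both strands. The matches are in capitals in 30-base stretches, because these genes moved together between KO and Mixed. They lie at chr1:174031870-174031899 for Ifi205, chr5:120777715-120777744 for Oas3 and chr12:26456553-26456582 for Rsad2, all read on the minus strand.
Ifi205: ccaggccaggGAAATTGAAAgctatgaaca
Oas3: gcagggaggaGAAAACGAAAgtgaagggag
Rsad2: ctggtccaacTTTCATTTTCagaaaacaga
The match ends 125 bases before the start in Ifi205 (-134 to -125), at -75 to -66 in Oas3, and at -120 to -111, on the reverse strand, in Rsad2. Of all 32851 windows, 3.44% hold these letters. With windows for only 18 of the 25 genes (72%), no share over the list is read.

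Interferon gamma induces the guanylate-binding proteins and the immunity-related GTPases, of which 9 of 12 were higher and 1 lower. Tgtp2 (4.31-fold), Gbp4 (3.37-fold), Irgm1 (2.23-fold) and Gbp9 (1.8-fold) led the list. Tgtp2 and the Gbp genes have near-identical copies, so their single values are uncertain.

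Dendritic cell genes were mostly higher in KO. Of 15 genes of conventional dendritic cells, 11 were higher and 3 lower, with a median log2 fold change of 2.29. Dpp4 (CD26) was at 78.9, 79 and 81.6 CPM in KO and 3.29, 2.41 and 1.92 in Mixed, a 31.2-fold difference with an adjusted p of 1.4e-17 and no overlap. Itgax (CD11c) was 21.3-fold and Snx22 12.9-fold higher, and Batf3 and Irf8, factors of the type 1 dendritic cell, were 11.3-fold and 2.36-fold higher. The lectin Cd209a, by contrast, was at 0, 0 and 0.676 CPM in KO and 13.2, 13.8 and 9.67 in Mixed, and Irf4, a factor of the other conventional subset, was 2.78-fold lower. Of 6 plasmacytoid dendritic cell genes, 3 were higher and 1 lower. Lair1 was 5.31-fold and Bst2 2.13-fold higher, Runx2 1.88-fold lower. The dendritic cell markers given above moved with these genes, and the part of any dendritic cells among the sorted KO cells in the result was not tested.

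Granule genes of neutrophils were counted by granule. Of 21 genes of secondary and tertiary granules, which form late in neutrophil maturation, 14 were higher in KO and 0 lower, with a median log2 fold change of 1.62. Chil1, a chitinase-like protein, was at 545, 509 and 530.4 CPM in KO and 4.03, 3.96 and 4.19 in Mixed (130.0-fold, adjusted p 3.31e-07), and Mmp8, neutrophil collagenase, at 1085, 1028 and 987 and 138, 142 and 144. Both genes separate the groups without overlap. Lcn2, an iron-trapping lipocalin, was 8.48-fold and the stefin Stfa2 49.3-fold higher, the latter with near-identical copies beside it. The defining secondary granule genes Ltf, Camp and Ngp were not called, with log2 fold changes of 1.46, 1.06 and 1.02 and adjusted p-values of 0.126, 0.238 and 0.27. S100a9, a calcium-binding alarmin, was 6.58-fold higher. Of 13 genes listed for the primary granules, which form first, 6 were higher and 6 lower. The serine protease Prss57 (9.08-fold) and Nkg7 (7.45-fold), of cytotoxic granules, were higher. The other higher genes were Srgn, Gstm1, the membrane protein Ms4a3 and Calr, which is also listed for protein folding in the endoplasmic reticulum. Mpo (2.33-fold), Elane (2.47-fold), Cst7 (4.59-fold) and Igfbp4 (4.24-fold) were lower, as were Ctsg and Prtn3. The granule enzymes Mpo, Elane, Ctsg and Prtn3 were thus all lower, while the higher genes are not all granule contents. The summed neutrophil markers, which include Mpo and Elane, overlap between KO and Mixed, but the single markers moved both ways. Ly6g was at 13.4, 11.9 and 8.28 CPM in KO and 0.366, 0.182 and 0.433 in Mixed, 33.8-fold higher with an adjusted p of 1.64e-10. S100a8 was 2.24-fold higher, whereas Mpo and Elane were lower and Ltf, Camp and Ngp not called.

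Among 10 B cell genes tested, 5 were higher and 1 lower. Ighm, the mu heavy chain, was at 291, 358 and 368 CPM in KO and 104, 80.5 and 90.9 in Mixed, and the adaptor Blnk at 11.3, 9.04 and 10.4 and 2.29, 2.96 and 2.17. Cd79b was 1.31-fold lower. The defining marker Cd79a was at 0.273, 0.473 and 0.296 CPM in KO and 0.595, 0.41 and 0.0962 in Mixed. Of 8 T and NK cell genes 1 was tested, Lck, at 0.591, 0.473 and 0.507 CPM in KO and 0.0915, 0 and 0.289 in Mixed (log2 fold change 2.02, adjusted p 0.0468), and its call ended when single libraries were left out. Erythroid genes gave 2 of 16 higher, Slc25a37 (1.66-fold) and Tfrc (1.3-fold), which many dividing cells also make, and 0 lower. Of 6 megakaryocyte genes 1 was lower, Itgb3 (1.83-fold), and of 8 mast cell, basophil and eosinophil genes 4 were higher and 0 lower. The shares called in the erythroid, megakaryocyte and mast cell lists were 12.5%, 16.7% and 50.0%, against 36.7% of all genes. Siglecf was 2.82-fold higher. The list of Xist and Y-linked genes had 0 of 5 called by edgeR's quasi-likelihood test, 0 with an unadjusted p under 0.05 and 0 by DESeq2, while limma-voom called 1 lower. Without KO 3 and WT 3, 2 of the 5 were higher and 1 lower, with Eif2s3y at a log2 fold change of 0.55 (adjusted p 0.000108) and Xist at -0.86 (adjusted p 9.12e-07).

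Genes that mark the classical monocyte moved both ways. Of 18, 8 were higher and 7 lower, and all 15 were also called between KO and WT. F13a1, the factor XIII A chain made by classical monocytes, was at 366, 442 and 362 CPM in KO and 3089, 2981 and 3115 in Mixed, 7.85-fold lower with an adjusted p of 6.59e-16. The matrix genes Vcan (5.94-fold) and Fn1 (4.9-fold) and lysozyme Lyz2 (1.89-fold) were lower. Plac8 was higher (2.98-fold), as were Mgst1 (2.05-fold) and Hp (1.36-fold), all 3 known from classical monocytes. Fn1 and F13a1 were also higher in Mixed than in WT, with log2 fold changes of 0.90 and 0.34 and adjusted p-values of 0.00231 and 0.00549.

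Among annotated genes outside the lists averaging at least 3 log2 CPM, the lowest in KO were Adgre4 (19.7-fold), an adhesion receptor of myeloid cells, and Cd302 (12-fold), a lectin-like receptor. Cd302 was at 6.41, 6.73 and 6.42 CPM in KO, 75.1, 82.3 and 76.9 in Mixed and 75.8, 75.2 and 75.9 in WT. The endothelin receptor Ednrb was 9.22-fold and the exchange factor Arhgef37 6.83-fold lower. The lactate dehydrogenase subunit Ldhb, which belongs to the glycolysis and hypoxia list, was 6.55-fold lower. Each of these genes separated KO from Mixed in every library.

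Of 20 genes of tissue macrophages 3 were higher and 6 lower, 45.0% of the list called against 36.7% of all genes. The lipid receptor Trem2 (8.45-fold), Gpnmb (6.14-fold), the fractalkine receptor Cx3cr1 (4.34-fold) and the liver X receptor Nr1h3 (2.86-fold) were lower. The count of higher genes was 1 without KO 1 or without Mixed 1, 5 without KO 2 and 6 without KO 3 and WT 3. Called against Mixed and not against WT were 4 genes of the list. Axl, a receptor for dying cells, was at 62.8, 66 and 69.1 CPM in KO, 87, 89 and 86.8 in Mixed and 73.4, 74.5 and 71.5 in WT, with a log2 fold change of -0.41 and an adjusted p of 1.1e-05. Adgre1, which encodes F4/80, was at 189, 182 and 216, 238, 227 and 228 and 167, 182 and 204 CPM (-0.24, adjusted p 0.00816), a call that ended without KO 2. In both genes the 3 Mixed libraries lie above every KO and WT library.

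Transcription factors of monocytes included 9 of 26 higher and 8 lower. Zeb1 was at 31.6, 32.5 and 32.8 CPM in KO against 4.12, 3.78 and 2.36 in Mixed and 4.35, 3.66 and 3.85 in WT, 9.4-fold higher with an adjusted p of 3.03e-13. Id2 was at 2535, 2545 and 2375 CPM against 486, 515 and 528 and 509.9, 469 and 445, 4.87-fold higher with an adjusted p of 4.09e-18. Neither Zeb1 nor Id2 overlaps between KO and the other groups. Runx3 (2.05-fold) was higher, Cebpa (3.59-fold), Id1 (1.94-fold) and Klf4 (1.34-fold) were lower. Of 20 genes of TGF-beta and BMP signalling, which acts through SMAD proteins that bind ZEB2, 3 were higher and 6 lower. These are 45.0% of the list, against 36.7% of all genes. The coreceptor Eng was 5.45-fold and the receptors Tgfbr1 1.66-fold and Acvr1 1.82-fold lower, and Acvrl1 2.13-fold higher. The Acvr1 call ended without KO 1 or without Mixed 1.

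Of 17 chemokine receptor and homing genes 12 were higher and 3 lower. Cxcr3 (7.03-fold) and the integrin chain Itgb7 (3.54-fold) were higher, and Cx3cr1 and Ccr2 (1.41-fold), the receptor by which monocytes leave the marrow, were lower. Of 16 chemokines and cytokines 7 were higher and 4 lower. Ccl9 (5.22-fold) and Ccl2 (4.32-fold), a ligand of Ccr2, were lower. Spp1, osteopontin, was at 83.7, 79.8 and 68.2 CPM in KO, 5.99, 7.19 and 6.88 in Mixed and 18.1, 26.7 and 54.1 in WT, and it was lower in Mixed than in WT as well (log2 fold change -2.31, adjusted p 0.00955). Of 21 Toll-like and C-type lectin receptors 7 were higher and 10 lower, with Tlr3 11.2-fold higher and Cd14 2.83-fold, Clec4a3 2.62-fold and Tlr6 2.44-fold lower. Of 17 complement and Fc receptor genes 7 were higher and 5 lower, with C5ar2 3.05-fold higher and the complement regulator Cfp 1.68-fold lower.

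Lipid genes also moved both ways. Of 17 genes of cholesterol efflux and lipid uptake 7 were higher and 5 lower. The count of higher genes fell to 4 without KO 1, KO 2 or KO 3 and to 3 without Mixed 1. Cd36, a scavenger receptor for fatty acids and oxidised lipids, was at 95.5, 85.8 and 98 CPM in KO, 1.42, 2.14 and 1.68 in Mixed and 1.84, 2.37 and 4.28 in WT, 53.1-fold higher with an adjusted p of 1.34e-13. The scavenger receptor Msr1 was 4.3-fold lower and the fatty acid carrier Fabp5 3.42-fold higher. Of 22 cholesterol synthesis genes 7 were higher, among them Srebf2 (2-fold), the regulator of the pathway, and Fdps (1.99-fold), and 3 lower, among them Dhcr7 (1.63-fold). The share called was 45.5%, against 36.7% of all genes.

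In 6 further lists between 43.5% and 54.2% of the tested genes were called, against 36.7% of all genes. Glycolysis and hypoxia gave 5 of 24 higher and 8 lower (Slc2a3 3.91-fold and Pfkfb3 2.12-fold higher, Ldhb, given above, and Hk3 3.86-fold lower). The lysosome gave 4 of 23 higher and 6 lower (Ctsl 2.25-fold and Psap 1.83-fold higher, Mcoln1 1.99-fold and Hexa 1.58-fold lower). Iron and heme gave 3 of 16 higher and 5 lower (Steap3 3.45-fold, Slc48a1 1.51-fold, Slc11a1 1.46-fold and Aco1 1.43-fold lower). Oxidant defence gave 6 of 24 higher and 7 lower (Gpx3 2.74-fold, Txnrd1 1.34-fold and Gsr 1.32-fold lower), with 4 lower without KO 2. Immediate early and stress genes gave 4 of 18 in each direction (Ier2 1.59-fold lower), with 2 higher without KO 1 or without Mixed 3 and 7 lower without WT 3. Protein folding in the endoplasmic reticulum gave 10 of 20 higher and 0 lower (Ddit3 1.63-fold, Manf 1.46-fold and Hyou1 1.38-fold).

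**Figure D2:**
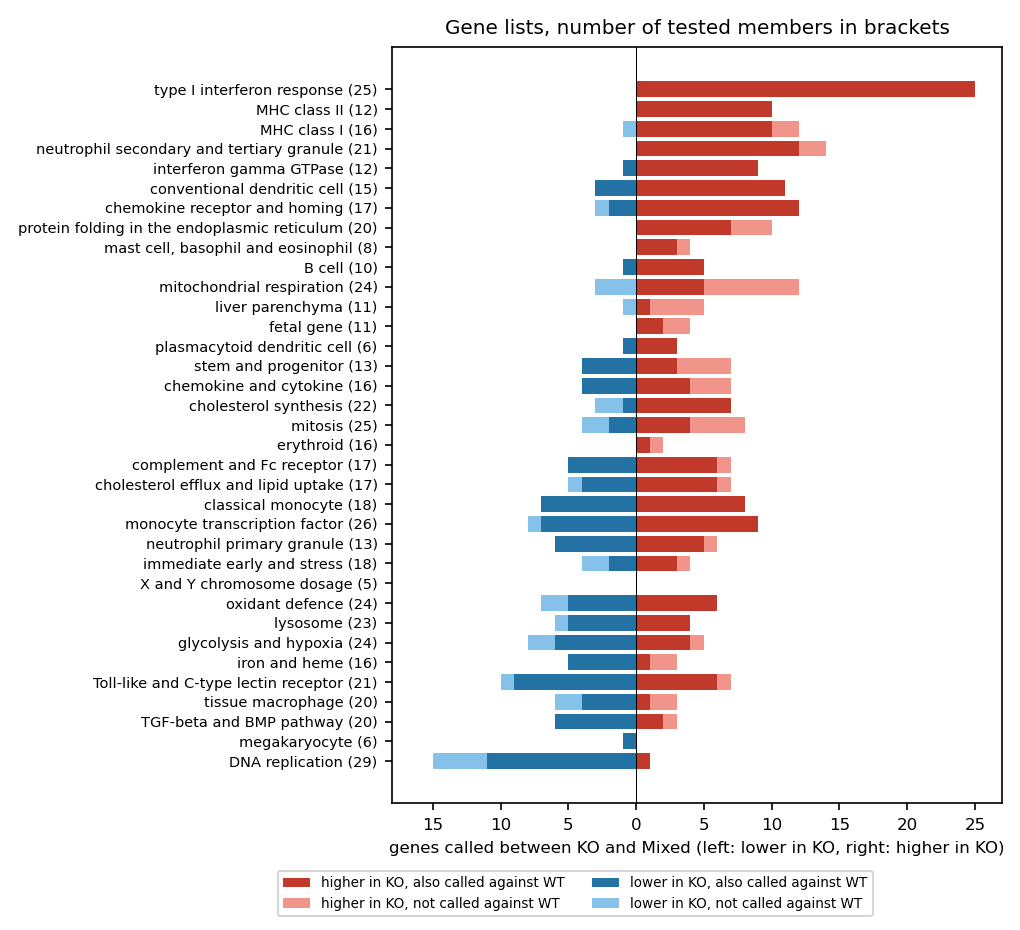
Bars give, for the 35 lists with at least 5 tested genes, the number called between KO and Mixed, to the right where higher and to the left where lower in KO, with the number tested in brackets. Pale segments are the genes not called between KO and WT: none of the 25 interferon genes and 7 of the 12 higher mitochondrial respiration genes are pale.

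Of the 5365 genes called between KO and Mixed, 1335 (24.9%) were not called between KO and WT, which is 9.13% of all genes tested. Of these, 632 (4.32%) were higher and 703 (4.81%) lower in KO. They were chosen on these contrasts, so their counts are a description. Their differences were small, with a median of 1.27-fold against 1.44-fold over all called genes, and 205 reached 2-fold. In 1121 of them the difference of KO against WT had the same sign. For the higher genes the median log2 difference was 0.36 against Mixed and 0.12 against WT, and for the lower genes -0.33 and -0.14. Between Mixed and WT the medians were -0.26 for the higher genes and 0.21 for the lower ones. A gene not called against WT is therefore not shown to be equal in KO and WT. At the edge of the choice, Mypopos was inside with an adjusted p of 0.05012 for KO against WT, and Zer1 outside with 0.04989. The difference between the contrasts is tested by Mixed against WT: 328 of the 1335 (2.24% of all genes) were called there too, 174 (1.19%) higher in KO than in Mixed and 154 (1.05%) lower. In these the medians were 0.29 against Mixed and -0.01 against WT for the higher genes and -0.33 and 0.00 for the lower ones, and 17 reached 2-fold. Without Mixed 1 the 1335 became 867 and the 328 became 113. The 328 became 208 without Mixed 3 and 160 without WT 1. With embryonic day as a term, which only the WT libraries inform, the numbers were 165 and 46. Without KO 3 and WT 3, the libraries with the most liver transcripts, they were 1608 and 446.

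Whether such genes go with the day or with the Mixed cells was described by the order of the 9 fetal liver libraries. In the first pattern, KO 1 to 3 and WT 1, all E13.5, lie on one side of Mixed 1 to 3, WT 2 and WT 3, all E15.5. In the second, KO and WT together lie on one side of Mixed. Of the 1335 genes 309 (23.1%) had the day order, 144 higher and 165 lower in KO, against 8.88% of all genes tested, and 718 (53.8%) had the Mixed order, 374 higher and 344 lower, against 10.9%. Both orders held for 153 (11.5%). The 309 became 673 without WT 2, 630 without WT 3 and 709 without KO 3 and WT 3. Of the 328 genes 40 (12.2%) had the day order, 313 (95.4%) the Mixed order and 25 (7.62%) the third order. The choice of genes favours the day and Mixed orders, since KO and Mixed must differ and KO and WT must not. The Mixed order is favoured most where Mixed differed from WT. Within WT alone, the test of WT 1 against WT 2 and WT 3 called 1 gene of 14618 (0.00684%), Gm4767, an unnamed gene model at 0, 4.33 and 3.85 CPM, and 625 genes (4.28%) had an unadjusted p under 0.05. DESeq2 and limma-voom called 0. With 1 library at E13.5 this test sees large differences only, and it does not show that day has no effect. Without WT 2 it called 19 genes, and without KO 2 it called 2.

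The genes higher in KO than in Mixed, not called against WT and lower in Mixed than in WT included many parts of the ribosome. Of the 174, 33 encode cytosolic ribosomal proteins, 10 are mitochondrially encoded and 23 are pseudogenes, against 79, 17 and 1098 of all 14618. Among the 154 lower genes the numbers were 0, 0 and 2. Families were drawn up from this after the values were seen, so they have counts and no test. Of 79 cytosolic ribosomal protein genes 59 (74.7%) were higher in KO than in Mixed and 0 lower. Of the 59, 50 were not called against WT, 33 of these were also called between Mixed and WT, and 42 of the 79 were lower in Mixed than in WT. Without Mixed 1 the number called against Mixed and not against WT was 33 in place of 50. The size of the differences was small, with a median log2 fold change of 0.19 between KO and Mixed, -0.19 between Mixed and WT and 0.02 between KO and WT. None of the 79 passed a test against a fold change of 1.5, and 11 were called with embryonic day as a term.

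In sum the ribosomal protein genes took 58823, 63900 and 59962 CPM in KO 1 to 3, 59000, 58169 and 59099 in WT 1 to 3, and 51755, 54368 and 54422 in Mixed 1 to 3. Mixed lies below every other fetal liver library, and WT 1 lies beside WT 2 and WT 3. Rps21 (chromosome 2, 180257377 to 180258445), of the small subunit, was at 254, 282 and 249 CPM in KO, 186, 198 and 198 in Mixed and 248, 248 and 239.8 in WT, with a log2 fold change of 0.43 (SE 0.064) and an adjusted p of 1.22e-05. Rps15a was at 446, 469 and 434, 345, 371 and 374 and 438, 417 and 435 CPM (0.31, adjusted p 7.82e-05). Rpl14, of the large subunit, was at 1217, 1359 and 1261, 1032, 1080.0 and 1111 and 1289, 1280.0 and 1219 CPM (0.25, adjusted p 0.000411). Rpl38 was at 295, 303 and 278, 241, 262 and 253 and 299, 299 and 313 CPM (0.21, adjusted p 0.0138). These 4 genes were picked after their values were seen, from those of the 33 whose RefSeq start shows the tract given next. In each of the 4, all Mixed libraries lie below all KO and WT libraries. Ribosomal protein genes have many processed pseudogenes, and reads can be split between a gene and its copies.

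Ribosomal protein transcripts usually begin with a C followed by a run of pyrimidines, the 5' terminal oligopyrimidine tract through which growth signals set their translation. The 20 bases before and 10 after the RefSeq start (GRCm38.p6) show such a tract, in capitals, in the 4 genes. They were chosen for having it, so its presence in them is not a result. The stretches lie at chr2:180257359-180257388 on the plus strand for Rps21, chr7:118116138-118116167 on the minus strand for Rps15a, chr9:120571497-120571526 on the plus strand for Rpl14 and chr11:114668560-114668589 on the plus strand for Rpl38.
Rps21: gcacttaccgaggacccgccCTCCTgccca
Rps15a: gcccactctctttctgccatCTTCCCTCgc
Rpl14: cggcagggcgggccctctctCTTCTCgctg
Rpl38: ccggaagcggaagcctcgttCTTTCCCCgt
A C followed by at least 4 pyrimidines at the first transcribed base occurs in 2.51% of all 32851 windows. Only 58 of the 79 genes (73.4%) have a window, and annotated starts are often off by a few bases, so no share over the family is read.

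Of the 15 mitochondrially encoded genes 12 were higher in KO than in Mixed and 0 lower, 11 of them not called against WT, and 13 were lower in Mixed than in WT. Their sum was 20653, 23290 and 20592 CPM in KO, 21635, 19562 and 21462 in WT and 15458, 17360 and 17165 in Mixed. The ribosomal RNAs led, with mt-Rnr1 at 430.0, 498 and 405 CPM in KO, 232, 290.4 and 236 in Mixed and 484, 429 and 412 in WT (log2 fold change 0.81, adjusted p 0.000653). The complex III gene mt-Cytb was at 2512, 2830.0 and 2602, 1966, 2204 and 2192 and 2645, 2441 and 2684 CPM (0.32, adjusted p 7.08e-05), and the complex I gene mt-Nd4 at 675, 698 and 628, 511, 572 and 549.8 and 718, 627 and 708 (0.29, adjusted p 0.000871). Mixed lies below KO and WT in each of these. Of 24 genes of mitochondrial respiration, 6 of them mitochondrially encoded, 12 were higher and 3 lower, and 7 and 3 of these were not called against WT, with 1 lower without Mixed 1. The nuclear complex I gene Ndufb8 was lower (-0.28, adjusted p 0.000323). The share of mitochondrially encoded counts ranged from 1.98% to 2.20% in KO, from 2.02% to 2.23% in WT and from 1.60% to 1.77% in Mixed. These genes have nuclear copies, which can share their reads.

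Translation factors gave 9 of 30 higher and 4 lower, 43.3% called against 36.7% of all genes. Of the higher genes 7 were not called against WT. There were 5 higher without KO 2 or without Mixed 1 and 2 lower without KO 2 or without Mixed 3. Eef1b2, of the elongation factor that recharges eEF1A, was at 388, 378 and 372 CPM in KO, 293, 314 and 290.1 in Mixed and 368, 356 and 368 in WT. Eef1a1 itself was at 6005, 6307 and 6361, 6348, 5784 and 6057 and 5210.0, 5979 and 5541 CPM (log2 fold change 0.04, adjusted p 0.629). The 174 higher genes had a median exon length of 1939.5 bases and the 154 lower genes 4424.5, against 3783 over all genes. Without ribosomal protein, mitochondrial and pseudogenes the 108 remaining higher genes had 3073.5. The part of transcript length in these differences was not tested.

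**Figure D3:**
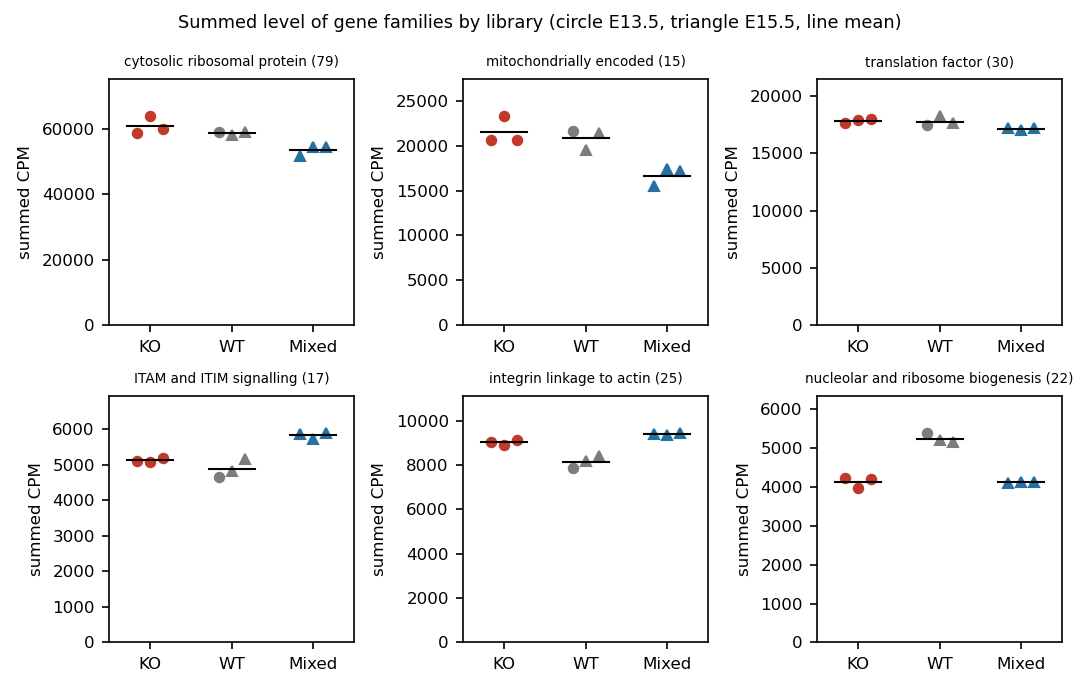
Each panel gives the summed CPM of a gene family in the 9 fetal liver libraries, with the number of tested genes in brackets, circles for E13.5, triangles for E15.5 and a line at the mean of 3. In the ribosomal protein and mitochondrial panels the Mixed libraries lie lowest, and WT 1 at E13.5 lies beside or above WT 2 and WT 3; in the ITAM and integrin panels the Mixed libraries lie highest.

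Of the single genes in this group, Ms4a3, a membrane protein of granulocyte-monocyte progenitors, had the largest difference among annotated genes averaging at least 3 log2 CPM. It was at 69.5, 55.5 and 54.9 CPM in KO, 30.3, 29.5 and 28.8 in Mixed and 61.9, 58 and 49.6 in WT, with log2 fold changes of 1.02 (SE 0.0957, adjusted p 1.79e-08) for KO against Mixed, 0.09 (adjusted p 0.5) for KO against WT and -0.94 (adjusted p 1.07e-05) for Mixed against WT. The Mixed libraries lie at nearly equal levels below the 6 others. Cd69 (chromosome 6, 129267325 to 129275436), a lectin that keeps leukocytes in tissue by opposing the S1P receptor, was at 55, 51.9 and 53.5 CPM in KO, 30.3, 28.1 and 26.6 in Mixed and 53, 49.6 and 43.2 in WT (0.92, adjusted p 1.76e-06). WT 1 lies above WT 2 and WT 3 in Cd69, so the gene has the day order as well as the Mixed order. Perp, a p53 target of the desmosome, was at 22.3, 17.7 and 19.9, 9.38, 11.5 and 9.33 and 16.8, 14.8 and 22.3 CPM (0.99, adjusted p 0.000115).

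Hspe1, the cochaperonin of the mitochondrial matrix, was at 253, 253 and 222 CPM in KO, 157, 172 and 177 in Mixed and 266, 236 and 232 in WT (log2 fold change 0.52, adjusted p 2.38e-06). Its partner Hspd1 was at 744, 689.6 and 670.1, 611, 625 and 649 and 822, 881 and 759 CPM, lower in KO than in WT (-0.23, adjusted p 0.00239) and higher than in Mixed (0.16, adjusted p 0.0291). In Hspe1 every Mixed library lies below every other. The ubiquitin ligase Nedd4 (0.63), the ion channel protein Ttyh2 (0.59), Cbwd1 (0.57) and the chromatin remodelling subunit Rsf1 (0.48) had smaller differences, with adjusted p-values of 8.99e-06, 0.000394, 0.000919 and 0.00268. Among 10 chaperonin genes 4 were higher and 1 lower, with 2 higher without Mixed 2.

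The 154 genes lower in KO than in Mixed, not called against WT and higher in Mixed than in WT included Ptpro, Sema4a and Nr4a1. Ptpro, a receptor phosphatase, was at 46.7, 60.3 and 54.1 CPM in KO, 81.4, 78.8 and 80.01 in Mixed and 54.3, 55 and 61.1 in WT (log2 fold change -0.58, SE 0.0734, adjusted p 1.68e-06). Sema4a, a semaphorin of immune cells, was at 119.9, 115 and 129, 179, 189 and 172 and 131, 122 and 150.5 CPM (-0.57, adjusted p 9.27e-07). Smpdl3a, a secreted phosphodiesterase, was at 51.9, 50.5 and 58.9, 80.4, 78.5 and 84.1 and 58.8, 59.5 and 57.7 CPM (-0.59, adjusted p 1.28e-07). In all 3 genes the Mixed libraries lie above every KO and WT library, and KO and WT overlap. Nr4a1, the nuclear receptor needed for Ly6C-low monocytes, was at 7.96, 6.04 and 8.07 CPM in KO, 13, 13.1 and 12.1 in Mixed and 7.92, 8.18 and 10.8 in WT (-0.78, adjusted p 4.21e-05), and it had both orders. Syne2 (-0.84), which ties the nucleus to actin, Pheta2 (-0.71), Tmem71 (-0.68), the sulfide oxidase Sqor (-0.60), the aldehyde dehydrogenase Aldh3b1 (-0.57) and utrophin, Utrn (-0.56), completed the 10 with the widest difference among annotated genes averaging at least 3 log2 CPM, with adjusted p-values between 1.02e-05 and 0.000127.

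The next families were also drawn up after the values were seen and have counts only. Of 17 genes of ITAM and ITIM signalling, by which activating and inhibitory receptors reach SYK and SHP phosphatases, 3 were higher and 8 lower in KO than in Mixed. Of the lower genes 5 were not called against WT, and 14 of the 17 were higher in Mixed than in WT. Tyrobp, the DAP12 adaptor, was at 485, 514 and 514 CPM in KO, 665, 633 and 643 in Mixed and 483, 502 and 583 in WT (log2 fold change -0.36, adjusted p 5.1e-05). The kinase Syk was at 136, 137 and 136, 144, 159 and 153 and 123, 129.7 and 131 CPM (-0.16, adjusted p 0.046). The kinase Fgr went the other way, at 236, 229 and 238, 194, 196 and 206 and 118, 130.0 and 146 CPM (0.24, adjusted p 0.007).

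Of 25 tested genes that link integrins to actin 8 were higher and 10 lower, 8 of the lower not called against WT. Itgal, the CD11a chain of LFA-1, was at 211, 206 and 215 CPM in KO, 269.7, 259 and 268 in Mixed and 199.5, 214 and 214 in WT (log2 fold change -0.33, adjusted p 2.89e-05). Flna, filamin A, was at 802, 712 and 734, 993, 1020.0 and 1071 and 739, 869 and 792 CPM (-0.46, adjusted p 2.56e-05), and Tln1, talin, at 316, 289 and 300.1, 366, 368 and 374 and 300.3, 339 and 329 (-0.29, adjusted p 0.00026). The partner chain Itgb2 and the other alpha chain Itgam were instead higher in KO than in Mixed, 1.21-fold and 1.34-fold. Of 7 genes of the phagocyte oxidase, 3 were higher and 2 lower. Ncf1 was 1.44-fold higher. Ncf4, at 351, 364 and 372 CPM in KO, 486, 417 and 446 in Mixed and 371, 362 and 393 in WT, was lower and not called against WT. The count of lower genes was 1 without KO 1, KO 2, Mixed 1, Mixed 3, WT 2 or bone marrow library 2 or 3.

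**Figure D4:**
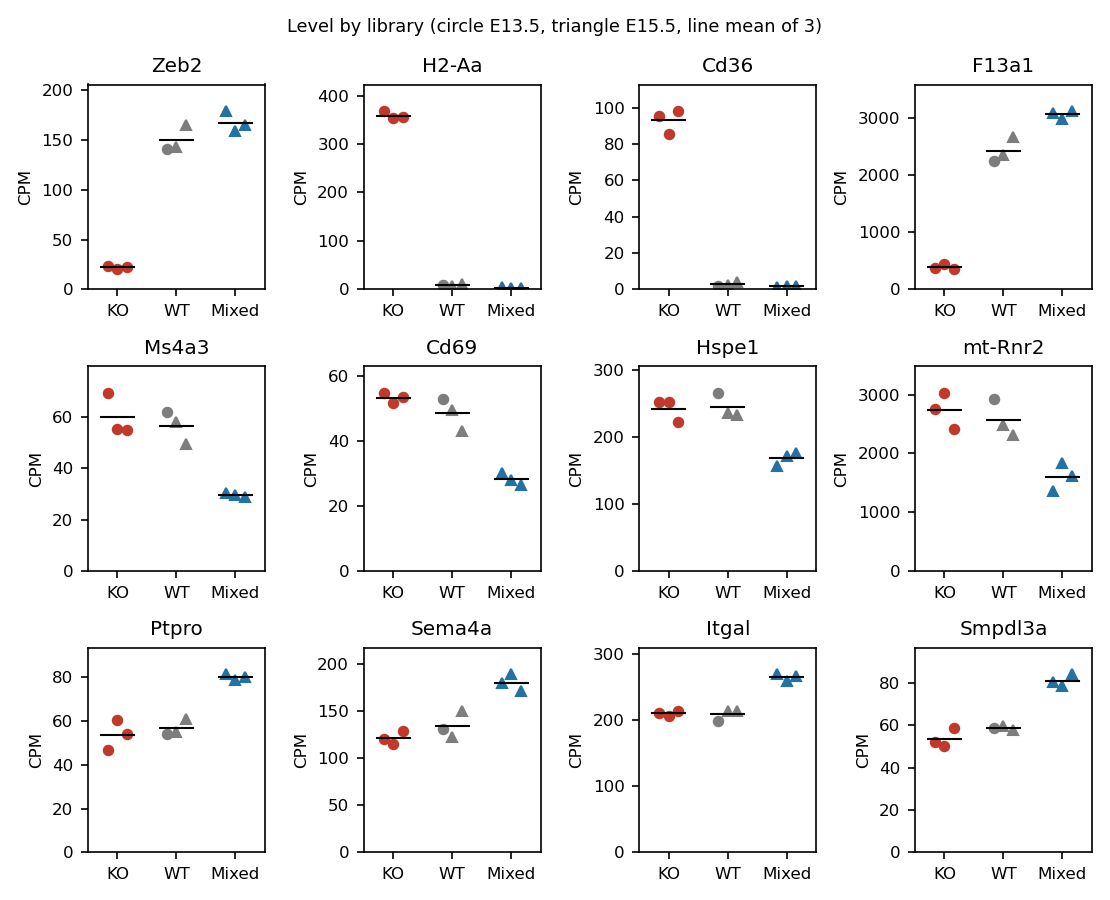
Each panel gives the CPM of 1 gene in the 9 fetal liver libraries, circles for E13.5, triangles for E15.5 and a line at the mean of 3. In the upper row KO stands apart from WT and Mixed, and in the middle and lower rows Mixed stands apart from KO and WT, which overlap.

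In the genes with the day order, WT 1 lies with KO and apart from WT 2 and WT 3. Besides Cd69, Cbwd1 and Nr4a1, the annotated genes with the largest differences at an average of at least 3 log2 CPM were Mcoln2 (log2 fold change 0.77), Rb1cc1 (0.57), Nme7 (0.50) and Hint3 (0.49), all higher in KO, with adjusted p-values of 0.02, 0.00451, 0.00345 and 0.003. The Mcoln2 call ended without KO 3, Mixed 2 or Mixed 3. Rb1cc1, the FIP200 subunit of the autophagy kinase, was at 15.2, 21 and 17.1 CPM in KO, 18.3, 13.3 and 13.7 in WT and 11.7, 14 and 10.1 in Mixed. Its WT 1 value lies among the KO values, and WT 2 and WT 3 lie nearer to Mixed. The ubiquitin ligase subunit Fbxl4 was at 9.41, 5.99 and 9.3, 8.93, 11.5 and 12.3 and 13, 12.8 and 16 CPM in KO, WT and Mixed (-0.75, adjusted p 0.000935), and Pidd1, a scaffold of the p53 response, at 31.5, 32 and 29.6, 28.8, 37.4 and 37.8 and 46.7, 39.8 and 47.4 (-0.53, adjusted p 0.000487). Trf, transferrin, Selenom and Slc35f6 were lower in KO as well (-0.87, -0.60 and -0.55, with adjusted p-values of 0.00717, 0.00159 and 5.75e-05). None of these 12 genes was called between WT 1 and the other WT libraries. With a fold change of 1.5 as the null, or with embryonic day as a term, 1 of the 12 stayed called, Cd69. The heat map of these genes shows the orders by library.

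**Figure D5:**
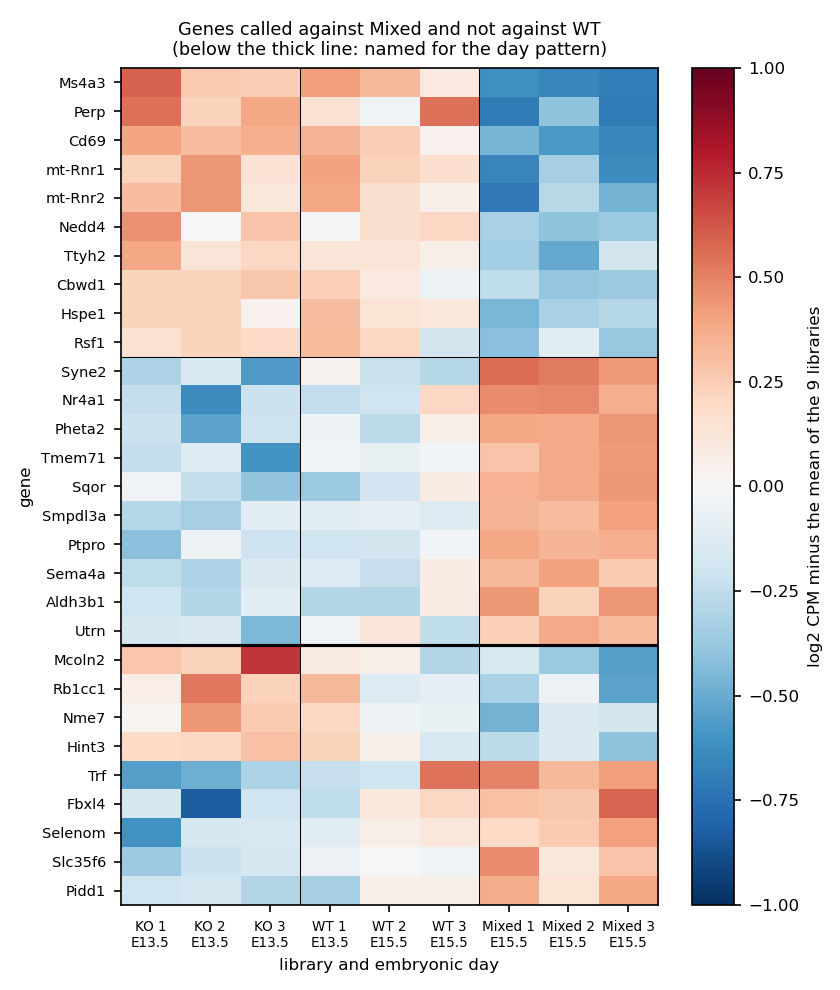
Colour gives log2 CPM minus the mean of the 9 libraries, with genes in rows and libraries in columns. Above the thick line are the 20 genes called against Mixed, not against WT and called between Mixed and WT, where the 3 Mixed columns stand apart from the 6 others; below it are 9 further genes named for the day order, where WT 1 sits with KO.

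Some genes called against Mixed alone had a wide spread in KO and WT and go with single libraries. Afp, alpha-fetoprotein of liver parenchyma, was at 9.69, 15.1 and 51.1 CPM in KO, 3.93, 3.92 and 2.4 in Mixed and 7.81, 5.45 and 39.7 in WT (log2 fold change 2.89, adjusted p 0.0439), with KO 3 and WT 3 highest. Its call ended in 14 of 24 alternatives, among them without KO 2, without KO 3, without any single Mixed or bone marrow library and with the 9 fetal liver libraries alone. Of 11 liver parenchyma genes 5 were higher and 1 lower, 4 and 1 of them not called against WT. The 5 became 1 without KO 3 or without Mixed 3, 2 without Mixed 1, 3 without Mixed 2 and 9 without WT 3. Krt18, which was also called against WT, was 3.54-fold higher. The sums of Alb and Afp given above also differed between libraries, and the part of liver transcripts in these counts was not tested.

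The granule genes Retnlg, at 33, 8.3 and 8.96 CPM in KO, 3.06, 2.64 and 3.85 in Mixed and 8.48, 10.3 and 22.6 in WT, and Itgb2l, at 22.6, 11 and 10.8, 4.39, 3.83 and 4.28 and 5.86, 7.06 and 17.9, had adjusted p-values of 0.021 and 0.016. Their calls ended without any Mixed library. In both genes the 3 Mixed libraries lie below the other 6. Mpeg1, perforin-2, was at 333, 236 and 158 CPM in KO and 83.6, 141 and 109 in Mixed (adjusted p 0.0161), and lost its call without KO 1, Mixed 1 or Mixed 3. Prg2, of eosinophil granules, was at 11.2, 24.3 and 46, 1.37, 0.137 and 3.56 and 4.63, 5.41 and 16.7 CPM in KO, Mixed and WT (adjusted p 0.00761). Embryonic globins gave 0 of 3 called by edgeR's quasi-likelihood test, 0 with an unadjusted p under 0.05 and 0 by DESeq2 or limma-voom, with Hbb-y at 9.19, 2.79 and 27.4 CPM in KO, 2.93, 0.273 and 0.529 in Mixed and 9.21, 0.268 and 38.1 in WT, again highest in KO 3 and WT 3. Of 3 tested endothelial and stromal genes 1 was higher, Pecam1 (4.37-fold), and 1 lower.

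Stem and progenitor genes gave 7 of 13 higher and 4 lower, and 4 of the higher were not called against WT, a number that was 2 without any single KO or Mixed library. Flt3, the receptor of dendritic progenitors, was 9.65-fold and Ly6a 22.1-fold higher, and Cd34 3.06-fold and Cd93 2.77-fold lower. Myb, a factor of progenitors, was at 23.8, 16.6 and 20.5 CPM in KO, 12.2, 17.2 and 13 in Mixed and 22.2, 21.4 and 20.8 in WT, so that Mixed was low against both (log2 fold change 0.52, adjusted p 0.0048, and -0.60, adjusted p 0.0103, for Mixed against WT). Among 11 fetal genes 4 were higher and 0 lower, 36.4% of the list called against 36.7% of all genes. Bcl11a was 2.44-fold and Lin28a 1.86-fold higher, and Igf2bp2, at 19.6, 16.3 and 18.9 CPM in KO, 14.2, 12.7 and 14.5 in Mixed and 19.5, 18.3 and 17.4 in WT, was not called against WT (adjusted p 0.00848 for KO against Mixed).

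Genes of DNA replication were mostly lower in KO, 15 of 29 against 1 higher, where 18.5% of all genes were lower. The median log2 fold change of the list was -0.17. Mcm3, of the replicative helicase, was at 394, 399.8 and 408 CPM in KO and 549, 503 and 532 in Mixed (-0.40, adjusted p 4.87e-06), and Mcm10 at 66.8, 77.5 and 76.7 and 110.4, 96.1 and 105 (-0.50, adjusted p 0.000189). The polymerase subunit Pold1 (-0.42) and the uracil glycosylase Ung (-0.52) were lower too. Of the 15, 4 were not called against WT, with Tyms, Lig1, Mcm5 and Mcm7 between -0.21 and -0.17, a number that was 1 without Mixed 3 and 2 without KO 1 or without Mixed 1. Of 25 mitotic genes 8 were higher and 4 lower, with Kif23 1.32-fold higher and Bub1 1.19-fold lower, and 5 were higher without Mixed 3. The share called was 48.0%, against 36.7% of all genes.

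In other lists, members called against Mixed alone were few. Ccl4, at 6.96, 2.73 and 4.9 CPM in KO, 1.92, 1.78 and 1.59 in Mixed and 3.12, 3.4 and 4.6 in WT, and the interleukin 1 antagonist Il1rn (1.59-fold) were higher in KO (adjusted p 0.000276 and 0.0044). Hmox1, which degrades heme, was 1.31-fold and the Fc receptor Fcgr4 1.49-fold higher, and the glycolytic enzyme Pfkl 1.28-fold and Egr1 2.24-fold lower. The Hmox1 call ended without KO 1 or Mixed 1, and the Egr1 call without KO 2, Mixed 2 or Mixed 3.

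The 13 genes that differed between KO and Mixed and, in the other direction, between KO and WT place KO between the groups. Highest in WT and lowest in Mixed were 6, Npm1, Hnrnpa1, Hspd1, Ddx3x, Eif1ax and the gene model Gm9531. Npm1, nucleophosmin of the nucleolus, was at 2013, 1883 and 1833 CPM in WT, 1640.0, 1619 and 1679 in KO and 1316, 1366 and 1359 in Mixed (0.29 against Mixed, adjusted p 8.69e-05, and -0.21 against WT, adjusted p 0.00163). Hnrnpa1, an RNA-binding protein, was at 1202, 1174 and 1119, 1092, 1037 and 1047 and 829.7, 901 and 883 CPM in the same order. The 3 groups do not overlap in either gene. The other 7 were highest in Mixed and lowest in WT, among them Pira2, Xdh, Elmo2, Scd2, Apobec1 and Tmem104. Pira2, an activating immunoglobulin-like receptor with near-identical copies, was at 126, 122 and 123 CPM in Mixed, 88.3, 97.8 and 89.9 in KO and 66.1, 75.2 and 85.7 in WT, and xanthine dehydrogenase, Xdh, at 224, 211 and 218, 192, 170.2 and 184 and 133, 153 and 154. Of a family of 22 nucleolar genes drawn up after the values were seen, 3 were higher and 13 lower in KO than in Mixed, 20 were lower in KO than in WT and 11 lower in Mixed than in WT. Their sum was 4217, 3967 and 4194 CPM in KO, 4093, 4120 and 4128 in Mixed and 5373, 5198 and 5149 in WT. In this sum KO and Mixed overlap below WT. Npm1 is a large part of the sum and moved against most members, so the overlap does not describe the family gene by gene. The median log2 fold change of KO against Mixed over the 22 genes was -0.26.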

How the data were processed

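The deposited table holds the authors' counts per gene for 12 libraries. Tools and build named in the submitters' processing notes are STAR, featureCounts, Salmon, DRAGEN and mm10, without their roles. The authors' values are unnormalized expected counts: 28.6% of the nonzero values in the deposited columns are not whole (tolerance 1e-06). Reads shared between genes can give such values, which was not tested. The values were rounded for the tests, although the design had assumed whole counts. Of 55774 entries, 287 repeats of an Ensembl gene were dropped. Libraries of a group differed by more than counting noise (chi-square per degree of freedom at least 4.634), so none was taken for a library deposited again. This does not show separate animals.

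The main test was edgeR's quasi-likelihood test (edgeR 4.0.16, R 4.3.3) with TMM scaling and means for the 4 groups, after filterByExpr (minimum count 10, minimum total 15) kept 14618 genes and at least 99.8% of each library's counts. Adjusted p-values are Benjamini-Hochberg over these genes and called means below 0.05. CPM values are not divided by gene length and are not compared between genes. Depths of 17384911 to 24473471 counts leave a biological coefficient of variation of 0.0917, so spread between libraries, not counting, limits abundant genes. The test was checked on simulated counts. Promoter windows and RefSeq sequences are from GRCm38.p6, gene positions from GENCODE M21 (mm10).

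Named were Zeb2, Maf and, by fixed rule, 196 genes in all. Among genes other than predicted genes and pseudogenes, with an average log2 CPM of at least 3 over the fetal liver libraries and no overlap of KO and Mixed, these were the 8 largest differences in each direction, the 10 in each direction called against Mixed and not WT with Mixed differing from WT, the 6 in each direction with each library order, and, at an average log2 CPM of at least 1, up to 4 per gene list. Genes named outside this rule, among them the ribosomal protein genes, Tyrobp, Flna and Npm1, were chosen after their values were seen, and some genes that the rule named are not reported here. The groups compared, the 38 gene lists and the rules were chosen with earlier results of these data known. DESeq2 1.42.0, limma-voom (limma 3.58.1), other filters and scalings, an embryonic day term, replicate blocks and leaving out libraries were alternatives.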

Additional observations from a re-analysis of the deposited data

How the results depend on the processing

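In KO against Mixed, a null of 1.5-fold left 909 genes higher and 448 lower, and embryonic day as a term 1209 and 769, so that 67.0% and 61.1% of calls were higher against 49.5%. Leaving out single libraries gave 2268 to 2816 higher and 2280 to 2788 lower. Genes called against Mixed and not WT numbered 262 with the 1.5-fold null, 165 with the day term and 867 to 1701 without single libraries. Those also called between Mixed and WT numbered 124 at an adjusted p under 0.01, 0 with the 1.5-fold null, 46 with the day term and 113 to 416 without single libraries. With the day order there were 85, 36 and 232 to 673 genes, and 709 without KO 3 and WT 3, an alternative chosen after seeing the data. With the Mixed order there were 123, 122 and 603 to 1063. The smaller counts under the 1.5-fold null and the lower p follow from the stricter call. The cause of the others was not tested. WT 1 against WT 2 and WT 3 gave 0 genes by DESeq2 and by limma-voom, 13 without a filter and 1 to 19 without single libraries. The Eif2s3y difference, otherwise not called, reversed to 0.55 and was called (adjusted p 0.000108) without KO 3 and WT 3. Over the named genes and settings, 4309 results kept the call, or stayed uncalled, 269 lost the call, 1 gained it and 1 reversed. Direction was compared only where a gene was called in either setting, so an uncalled gene may have changed sign. With a replicate block 2616 genes were higher, 2672 lower, 1307 called against Mixed and not WT and 320 also between Mixed and WT. Over all genes, same-numbered KO and Mixed libraries showed no strong shared deviation (r of -0.0224, 0.0131 and 0.02). For KO and WT the r was 0.0287, 0.00928 and 0.0693. The numbers were therefore not used as a pairing in the main test. Whether same-numbered libraries share a litter or a sort was not tested.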

Other observations

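The 3 libraries of bone marrow monocytes stand outside the comparison but give a further level for the genes called against Mixed and not against WT. They share the WT and Mixed libraries' count table and not their days, and no test is drawn from them. Among genes higher in Mixed than in KO and WT, the bone marrow mean was 282 CPM for Ptpro, 399 for Sema4a, 444 for Smpdl3a, 87.4 for Nr4a1, 1125 for Tyrobp, 321 for Itgal and 1530.0 for Flna, against Mixed means of 80.1 ± 1.28, 180.0 ± 8.65, 81 ± 2.85, 12.7 ± 0.564, 647 ± 16.3, 266 ± 5.6 and 1028 ± 39.4 (SD, n = 3). Among genes lower in Mixed, it was 13.9 CPM for Ms4a3, 9.92 for Cd69, 53.6 for Hspe1, 15 for Myb, 97.7 for Rps21 and 854 for mt-Rnr2, against Mixed means of 29.5 ± 0.733, 28.3 ± 1.85, 169 ± 10.4, 14.2 ± 2.68, 194 ± 7.03 and 1604 ± 243. Summed over the 79 ribosomal protein genes, the bone marrow libraries held 38645, 38082 and 40220 CPM, below every fetal liver library.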
